A study of Mus musculus with 42 samples.

Results

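The proteasome is the barrel-shaped protease that breaks down ubiquitin-tagged proteins, and its subunits are encoded by the Psma, Psmb, Psmc and Psmd genes. Protein-coding genes of the count table whose symbol is one of these stems followed by a number were taken, except Psmb8 and Psmb9, which left 37 of 54232 genes. Of these, 17 encode subunits of the core and 17 encode subunits of the regulatory particle. The other 3, Psmd5, Psmd9 and Psmd10, encode chaperones that help to assemble the base of the regulatory particle and are not part of the finished complex. Expression was measured by RNA sequencing of polyadenylated RNA from mouse brain in 42 libraries, 22 labelled hippocampus and 20 labelled cerebellum. Under each region label there were mice fed a western diet (42% fat) with NaKtide, a western diet alone, a control chow (11% fat) with NaKtide, and the control chow alone, each for 12 weeks. NaKtide is a peptide derived from the Na,K-ATPase that inhibits Src signalling by the pump. It came from a transgene that was switched on by doxycycline in the food at 300 mg/kg, so transgene, doxycycline and NaKtide cannot be told apart here. The sources used here do not say whether the other mice also ate doxycycline, nor do they name the promoter of the transgene or the strain and age of the mice. The hippocampus label held 6 libraries of western diet with NaKtide, 5 of western diet, 5 of control diet with NaKtide and 6 of control diet, and the cerebellum label held 5 of each.

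In the core, a pair of outer rings of alpha subunits gates the entry and a pair of inner rings of beta subunits encloses the active sites, which lie on the subunits Psmb5, Psmb6 and Psmb7. The regulatory particle consists of a base and a lid. Its base has a ring of ATPases (Psmc1 to Psmc6) that unfold substrates, together with Psmd1, Psmd2 and the ubiquitin receptor Psmd4, and the lid holds the subunit that removes ubiquitin, Psmd14. In neurons the complex is known for turning over synaptic proteins, and in cells exposed to interferon the subunits Psmb8, Psmb9 and Psmb10 replace the standard active subunits to form the immunoproteasome. A standard proteasome needs its subunits in fixed numbers, and their genes are known to be transcribed together under the factor Nfe2l1.

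Library totals were 4669374 to 9521002 counts. Markers did not bear out the region labels in many libraries. Gabra6, which marks granule neurons of the cerebellum, stayed below 1 CPM (counts scaled to library size) in 15 of 20 libraries labelled cerebellum, and it reached 10 CPM in 3 of them and in 1 library labelled hippocampus. Summed pyramidal cell markers of the hippocampus had group medians of 171.8 to 366 CPM under that label and 127.8 to 355.3 CPM under cerebellum. For dentate granule cell markers these were 46.55 to 285.4 CPM and 56.21 to 64.7 CPM. Hippocampus western NaKtide 3 held 44.5 CPM of pyramidal and 831 CPM of thalamus markers. Hippocampus western NaKtide 6 held 3789 CPM of striatal markers. The words hippocampus and cerebellum below therefore mean the labels. The labels do not state that each library was a different animal, and the p-values below therefore reflect the spread among libraries, part of which may be technical. Hippocampus control 5 and 6 were the closest of 90 pairs of libraries within groups. Their counts differed by a chi-square of 2.32 per degree of freedom, where sampling noise alone gives about 1 and the other pairs had 7.11 or more. They thus differ by more than that noise, which does not show whether they came from different animals. Their marker sums were close, at 308.6 and 308.0 CPM for choroid plexus, where the group ranged from 9.35 to 5179 CPM. For striatum they were 1273 and 1285 CPM, where the group ranged from 230 to 2418 CPM. If both came from the same tissue, the hippocampus control group held fewer than 6 independent samples. Both were kept as separate samples. With both summed into 1 library, the counts of called genes below were the same for the comparisons within hippocampus, while between the labels they were 0 in place of 3 in control mice and 1 in place of 2 on western diet with NaKtide. Fewer cells of a type and less RNA per cell cannot be told apart in such bulk samples.

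Of the 37 genes, 35 passed the filter on low counts, with 79 to 3352 counts per library. Psma8, the testis form of an alpha subunit, had 0 to 6 counts, and Psmb11, the thymus form of a beta subunit, had 0 to 4, so neither was tested. Levels between genes were compared in FPKM, which is scaled to gene length. Over the 42 libraries the highest mean level was 199 FPKM, for the base ATPase gene Psmc5, with a range of 116 to 403 FPKM. Next were the genes of a pair of active beta subunits, Psmb5 (146.6 FPKM) and Psmb6 (88.0 FPKM), followed by Psmb4 (85.6 FPKM). The gene of the remaining active subunit, Psmb7, averaged 21.2 FPKM. Lowest among the genes tested were the chaperone genes Psmd9 at 4.28 FPKM and Psmd5 at 5.09 FPKM, and the lid gene Psmd11 at 8.28 FPKM. The length used is that of all annotated exons of a gene, so ranks in FPKM depend on it. Psmb1, at 4595 bases, averaged 181.9 CPM and 39.3 FPKM. Psmb5, at 899 bases, averaged 132.7 CPM and 146.6 FPKM. On this scale, transcripts of subunits that occur in equal numbers in the complex differed widely in level. The level of a gene was steadiest over the libraries for Psmd2, a large subunit of the base, with a coefficient of variation of 8.80% in CPM, and for Psmd7 of the lid, with 9.13%. Of the 35 genes it varied most for Psmb10, the immunoproteasome subunit that replaces Psmb7, with 35.1%. Among the standard subunits it varied most for Psmb6, with 29.1%.

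**Figure D1:**
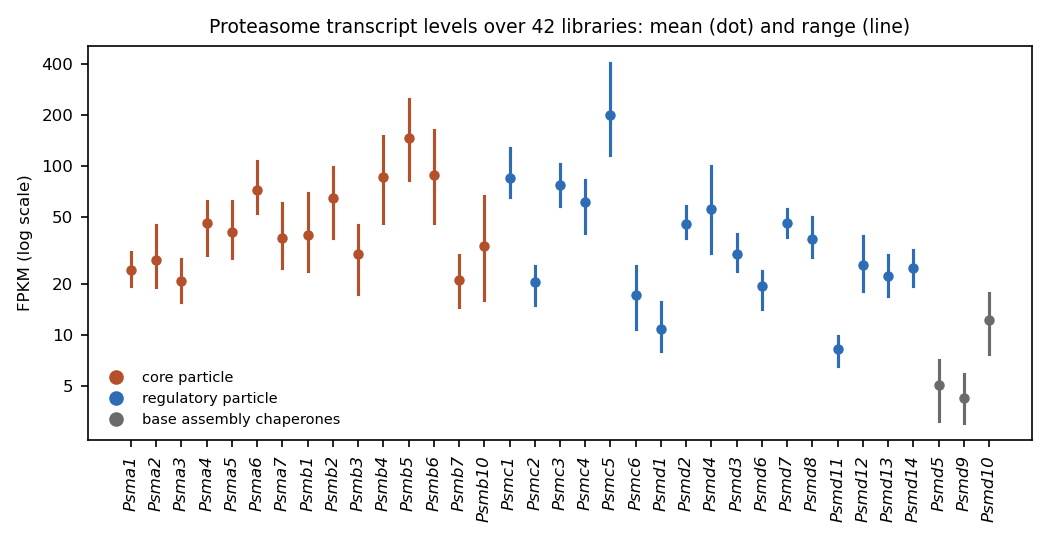
Level of each of the 35 tested proteasome genes in FPKM (y axis, log scale), with the mean over 42 libraries as a dot and the range as a line, ordered and coloured by part of the complex. Psmc5 stands highest at a mean of 199 FPKM, and the chaperone genes Psmd5 and Psmd9 stand lowest at 5.09 and 4.28 FPKM.

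The promoters of these genes are shown because 1 short motif was present in nearly all windows of regulatory particle genes; no difference between sets of windows was tested. RefSeq promoter windows (GRCm38.p6, 250 bases before to 50 after the start) were at hand for 30 of the 37 genes. The letters CGGAAG, the core of the sites bound by ETS factors, were searched on both strands. They were found in the windows of 13 of 14 regulatory particle genes (92.9%), 5 of 13 core genes (38.5%) and 0 of 3 chaperone genes. All 27025 genes with windows held them in 18.8% of cases, and the 11165 of these tested in the hippocampus libraries in 32.3%. Psmc5 was the regulatory particle gene without them. Stretches of 60 bases follow in the direction of transcription, with the match in capitals (CTTCCG is a match on the other strand).
Psmd1, chr1:86064522-86064581, plus strand: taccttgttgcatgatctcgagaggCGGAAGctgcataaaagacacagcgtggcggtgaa
Psmd4, chr3:95042704-95042763, minus strand: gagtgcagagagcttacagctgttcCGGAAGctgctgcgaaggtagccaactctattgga
Psmd14, chr2:61711555-61711614, plus strand: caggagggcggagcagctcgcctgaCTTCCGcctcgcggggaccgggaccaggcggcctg
Psmd2, chr16:20651592-20651651, plus strand: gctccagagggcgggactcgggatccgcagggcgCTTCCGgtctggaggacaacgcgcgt
Psmc6, chr14:45329700-45329759, plus strand: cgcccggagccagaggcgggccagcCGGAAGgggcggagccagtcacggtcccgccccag
Psmb4, a core gene, had its match 4 bases before the start. The antioxidant response letters TGACNNNGC, which fall within sites read by Nfe2l1 and Nfe2l2, were found in 5 of the 30 genes (16.7%), the same share as in the genes tested (16.7%). These were Psmb5, Psmb6, Psmc6, Psmd12 and Psmd9, with the match starting at -9 in Psmb6, -31 in Psmd9 and -47 in Psmb5, counted from the start. The windows of the core genes among these 3 are shown.
Psmb5, chr14:54618008-54618067, minus strand: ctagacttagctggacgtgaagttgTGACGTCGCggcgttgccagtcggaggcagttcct
Psmb6, chr11:70525297-70525356, plus strand: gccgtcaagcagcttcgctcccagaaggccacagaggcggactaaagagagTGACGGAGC
GGGCGG, the letters read by Sp1, was found in 71.4% of the regulatory particle windows, 38.5% of the core windows and 60.0% of the 30, against 67.6% of the genes tested. CCAAT was found in 28.6% of the regulatory particle windows, 53.8% of the core windows and 40.0% of the 30, against 42.7% of the genes tested. A match is only a description of the sequence, and no binding was measured.

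The first comparison asks what NaKtide changed under the western diet. In hippocampus libraries, western diet with NaKtide (n = 6) against western diet alone (n = 5), edgeR's quasi-likelihood test called 13 of the 35 proteasome genes at an adjusted p under 0.05, 10 higher and 3 lower. Of all genes tested, 33.7% were called, 17.4% higher and 16.3% lower, so the share of proteasome genes called was near that of genes in general. Of the 14 standard core genes, 5 were higher and 0 lower, with a median log2 fold change of 0.30. Of the 17 regulatory particle genes, 3 were higher and 2 lower, with a median of 0.14, and the median of all genes tested was 0.05. Without hippocampus western 2 or without hippocampus western 3 the count of calls was 7 (4 higher, 3 lower) in place of 13, beside 22.9% and 24.4% of all genes.

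**Figure D2:**
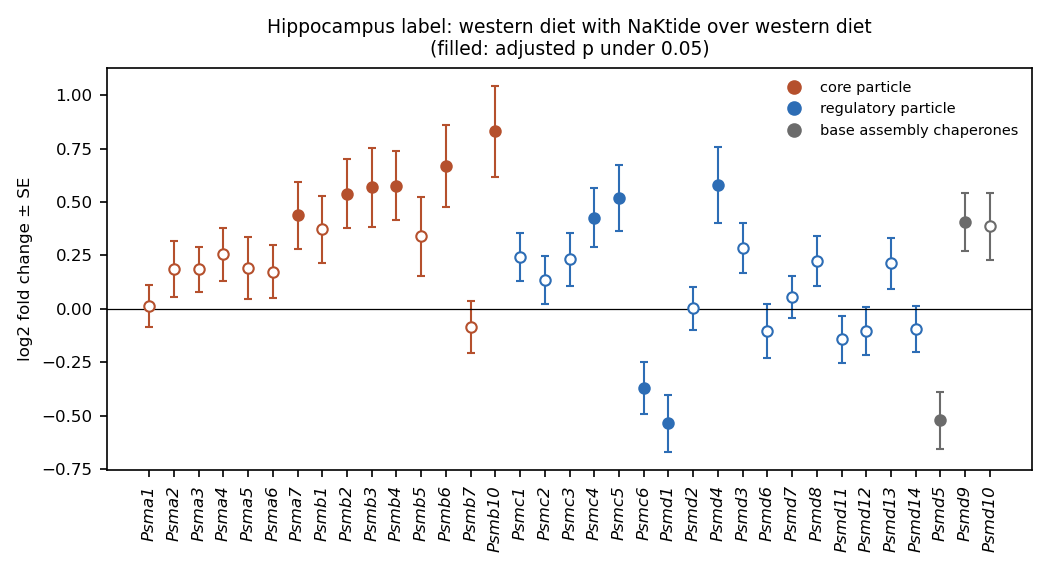
Log2 fold change of each tested proteasome gene for western diet with NaKtide over western diet alone in hippocampus libraries (y axis; lines are 1 SE; n = 6 and 5), ordered and coloured by part of the complex, with filled symbols for an adjusted p under 0.05. Psmb10 is highest at 0.83 and Psmd1 lowest at -0.54, and the lid genes lie between -0.14 and 0.29.

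In the alpha ring, 7 of 7 genes had a positive fold change but 1 was called. This was Psma7 (ENSMUSG00000027566, GRCm38 chromosome 2, 180036374 to 180042433), whose lowest, median and highest levels were 93.7, 112 and 155 CPM in western NaKtide libraries. In western libraries Psma7 stood at 102, 77.8, 78.6, 84.5 and 106 CPM. Its NaKtide libraries were mostly the higher ones, and the groups overlapped, with a log2 change of 0.44 (SE 0.16, adjusted p = 0.0355). The call of Psma7 was lost without any 1 of 6 libraries, western 2, 3 or 4 or western NaKtide 1, 2 or 5, where the fold change was 0.35 to 0.42. Psma1, the alpha gene with the largest p, lay at 59.1, 65.3 and 78.5 CPM (lowest, median, highest) in western NaKtide libraries, against 75.9, 59.1, 62.1, 66.8 and 73.6 CPM in western libraries. These ranges were nearly the same, with a log2 change of 0.01 (SE 0.10).

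The beta ring held most of the core genes called. Of its 4 genes without an active site, Psmb2, Psmb3 and Psmb4 were higher, and Psmb1 had an adjusted p of 0.0688. Psmb4 (ENSMUSG00000005779, chromosome 3, 94884093 to 94886961) lay at 140.2, 165 and 204 CPM (lowest, median, highest) in western NaKtide libraries. In western libraries Psmb4 stood at 137, 93.8, 91.5, 94.5 and 155 CPM. Only western 1 and western 5 came near the NaKtide libraries, and the log2 fold change was 0.58 (SE 0.16, adjusted p = 0.0114). Psmb1 lay at 137, 169.5 and 226 CPM in western NaKtide libraries, against 163, 114, 113, 119 and 171 CPM in western libraries. Western 1 and 5 again lay within the NaKtide range, and the log2 fold change was 0.37 (SE 0.16). The call of Psmb1 appeared without western 1, western 5 or western NaKtide 4 (0.43 to 0.47). Psmb2 and Psmb3 had log2 fold changes of 0.54 (adjusted p = 0.0150) and 0.57 (adjusted p = 0.0225).

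Among the genes of active subunits, only Psmb6, which carries the caspase-like site, was called (ENSMUSG00000018286, chromosome 11, 70525367 to 70527858). Its lowest, median and highest levels were 120.5, 170.0 and 228 CPM in western NaKtide libraries. In western libraries it stood at 133, 86.5, 89.0, 94.3 and 145 CPM. All but 1 NaKtide library lay above all western libraries, and the log2 fold change was 0.67 (SE 0.19, adjusted p = 0.0125). Psmb5, with the chymotrypsin-like site, had a log2 change of 0.34 (SE 0.19, adjusted p = 0.158). Psmb7, with the trypsin-like site, lay at 55.1, 61.6 and 78.3 CPM (lowest, median, highest) in western NaKtide libraries, against 74.7, 67.8, 61.2, 70.5 and 75.1 CPM in western libraries. Its groups overlapped throughout, and its log2 fold change was -0.09 (SE 0.12).

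Psmb10, which takes the place of Psmb7 in the immunoproteasome, had the largest fold change of the 35 genes (ENSMUSG00000031897, chromosome 8, 105935735 to 105938444). It lay at 35.9, 66.6 and 81.3 CPM (lowest, median, highest) in western NaKtide libraries. In western libraries it stood at 38.1, 32.9, 34.7, 29.9 and 46.3 CPM. NaKtide library 6, which holds Xist, the RNA of an inactive X chromosome, lay among the western libraries. The other 5 lay above them. The log2 fold change was 0.83 (SE 0.21, adjusted p = 0.00709). It was 0.71 to 0.96 without any 1 library, the highest being without NaKtide library 6.

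In the base, the ATPase genes Psmc5 and Psmc4 were higher and Psmc6 was lower. Psmc5 (ENSMUSG00000020708, chromosome 11, 106256154 to 106263120) lay at 225, 296 and 321 CPM (lowest, median, highest) in western NaKtide libraries, against 209, 163, 172, 166 and 284 CPM in western libraries. Western 5 was the only library of its group within the NaKtide range, and the log2 fold change was 0.52 (SE 0.15, adjusted p = 0.0147). That call was lost without western 2, at a fold change of 0.44. Psmc6 (ENSMUSG00000021832, chromosome 14, 45329788 to 45349705) lay at 38.3, 51.0 and 58.6 CPM in western NaKtide libraries, against 66.0, 61.9, 59.6, 66.4 and 75.1 CPM in western libraries. Every NaKtide library lay below every western library, with a log2 change of -0.37 (SE 0.12, adjusted p = 0.0224), and the call was lost without western 5 or without western NaKtide 5 (-0.32 and -0.30). Psmc4 had a log2 change of 0.43 (SE 0.14, adjusted p = 0.0214). Psmc2, the ATPase gene with the largest p, lay at 79.7, 105 and 116 CPM in western NaKtide libraries, against 103, 85.8, 77.7, 92.4 and 102 CPM in western libraries, and its groups overlapped (0.14, SE 0.11).

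The non-ATPase genes of the base went in opposite directions. Psmd4, the ubiquitin receptor, was higher (ENSMUSG00000005625, chromosome 3, 95032694 to 95042614). It lay at 122, 171 and 183 CPM (lowest, median, highest) in western NaKtide libraries, against 126, 92.4, 87.4, 91.3 and 147 CPM in western libraries. Western 1 and western 5 overlapped with the NaKtide libraries, and the log2 fold change was 0.58 (SE 0.18, adjusted p = 0.0169). Psmd1, the large scaffold subunit to which several base partners bind, was lower (ENSMUSG00000026229, chromosome 1, 86064387 to 86139151). Its levels were 57.7, 64.7 and 89.6 CPM in western NaKtide libraries, against 83.8, 103, 112, 118 and 80.5 CPM in western libraries. Only NaKtide library 6 reached the western range, and the log2 fold change was -0.54 (SE 0.13, adjusted p = 0.00657). It was -0.62 without NaKtide library 6, the library with Xist. Psmd2, a scaffold subunit that docks ubiquitin shuttles, lay at 151, 183 and 233 CPM in western NaKtide libraries, against 178, 186, 198, 192 and 171 CPM in western libraries, with a log2 change of 0.00 (SE 0.10).

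None of the 8 lid genes that the symbol rule takes in was called by edgeR. But for Psmd3, none passed an unadjusted p of 0.05, which 44.9% of all genes did (23.5% higher and 21.4% lower). Psmd3 lay at 138, 149.9 and 197 CPM (lowest, median, highest) in western NaKtide libraries, against 131, 132, 133, 126 and 133 CPM in western libraries. Every NaKtide library lay above every western library, and the log2 fold change was 0.29 (SE 0.12, adjusted p = 0.0633). DESeq2 called it (adjusted p = 0.0425). Psmd7, the lid gene with the largest p, lay at 87.2, 99.9 and 109.6 CPM in western NaKtide libraries, against 102, 86.7, 101, 90.8 and 105 CPM in western libraries (0.06, SE 0.10). Psmd13 shares its locus and strand with a pseudogene, Gm15542, that holds 314 to 1116 counts per library, so its counts are uncertain. Pseudogene copies of Psmb5, Psmb6 and Psmb7 held 0 to 26 counts per library. Psmb7 overlaps Nek6 on the other strand (97 to 428 counts), and whether strand was used in counting is not stated.

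Of the 3 base chaperones, 1 was higher and 1 lower. Psmd5 (ENSMUSG00000026869, chromosome 2, 34849734 to 34874968) lay at 22.3, 31.5 and 37.5 CPM (lowest, median, highest) in western NaKtide libraries, against 43.9, 46.2, 42.5, 46.1 and 46.6 CPM in western libraries. The groups did not overlap, and the log2 fold change was -0.52 (SE 0.13, adjusted p = 0.00688). Psmd9 had a log2 change of 0.41 (SE 0.14, adjusted p = 0.0253). Psmd10, also known as gankyrin, lay at 12.8, 18.9 and 24.5 CPM in western NaKtide libraries, against 17.8, 13.6, 15.3, 11.7 and 15.2 CPM in western libraries (0.39, SE 0.16, adjusted p = 0.0590), and it was called without western 1 or western NaKtide 4 (0.46 and 0.48). Over the 35 genes, the groups did not overlap for Psmd3, which was higher, and for Psmc6 and Psmd5, which were lower. Among all genes with a mean of at least 1 CPM, 5.51% lay wholly higher and 7.38% wholly lower.

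Gene length moved with these differences. When all genes tested were split into 4 equal groups by the exon length that the FPKM values imply, the median log2 fold change was 0.48 in the shortest group, 0.14 and -0.08 in the middle ones, and -0.28 in the longest. Genes called higher made up 36% of the shortest group and 5.42% of the longest. Of the proteasome genes, 10 lay in the shortest group, 17 in the next, and 4 in each of the others. The median length was 1951 bases for the beta ring, 2952 for the alpha ring and 2938.5 for the lid. The lower genes Psmd1 (7265 bases) and Psmd5 (7230 bases) were among the longest, but Psmd9 at 7248 bases was higher and Psmc6 at 3498 bases was lower. With each library's trend with length taken out, 10 genes were called, 9 higher and 1 lower, against 28.0% of all genes. Psmb6 (log2 fold change 0.48), Psmb4 (0.40), Psma7 (0.39), Psmb10 (0.61) and Psmc6 (-0.37) remained called, whereas Psmc5 (0.26, adjusted p = 0.0772), Psmd1 (-0.28, adjusted p = 0.0653) and Psmd5 (-0.28, adjusted p = 0.128) did not. Psmb1 (0.46, adjusted p = 0.0464) and Psmd3 (0.40, adjusted p = 0.0232) were called then.

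**Figure D3:**
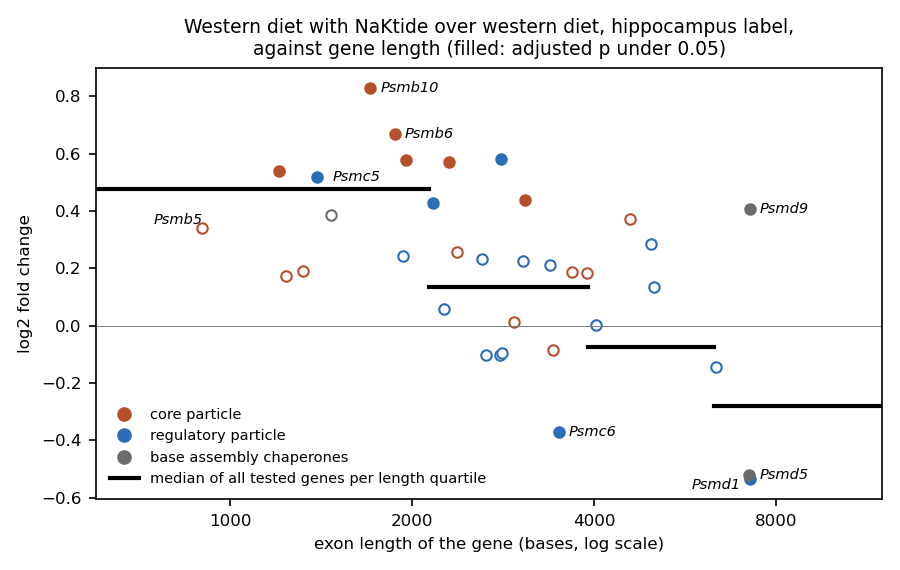
Log2 fold change for western diet with NaKtide over western diet alone in hippocampus libraries (y axis) against exon length in bases (x axis, log scale), with 1 point per proteasome gene, filled for an adjusted p under 0.05, and black lines at the median of all genes in each length group. Psmb6 at 1872 bases lies high, and the long genes Psmd1 and Psmd5 lie lowest at -0.54 and -0.52. Other genes depart from this order: Psmd9 at 7248 bases was called higher, Psmc6 at 3498 bases was called lower, and Psmb5 at 899 bases was not called.

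Cell type markers also differed between these groups. Markers of microglia summed to 465 to 690.1 CPM in western NaKtide libraries, against 280 to 458 CPM in western libraries, and 6 of 9 were called higher. Markers of blood cells summed to 710.2 to 3522 CPM, against 248 to 1234 CPM, and 4 of 5 were called higher. Neuronal markers summed to 2372 to 3699 CPM, against 3729 to 4538 CPM, and 3 of 5 were called lower. Dentate granule cell markers summed to 40.4 to 154 CPM, against 96.7 to 460 CPM, with 4 of 5 lower, and 3 of 5 astrocyte markers were lower. Striatal markers summed to 197 to 3789 CPM, against 144 to 407 CPM, with 3 of 7 higher. Oligodendrocyte markers summed to a median of 10800 CPM (2165 to 21170) with NaKtide, against 4788 CPM (3412 to 9702) without. Choroid plexus markers summed to 18.7 to 5150 CPM, against 16.6 to 2551 CPM, and thalamus markers to 31.8 to 831 CPM, against 55.8 to 346.5 CPM. Genes of cytosolic ribosomal proteins, which are short, had a median log2 fold change of 0.90 with 72 of 77 called higher. The part of gene length and of cell content in the proteasome differences was not tested, beyond the fit with the length trend removed.

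The balance of core and regulatory particle was described in each library as the mean log2(CPM + 1) of the 14 standard core genes minus that of the 17 regulatory particle genes. This is a difference of transcript levels on the log2 scale and is not scaled to length, so its absolute value cannot be read. Its changes between libraries are not free of length either. The median length was 2335 bases for the core genes and 2820 for the regulatory particle genes. The length trend of each library was not taken out of this balance, and its part in the differences was not tested. The balance averaged -0.08 ± 0.11 in western NaKtide libraries (n = 6) and -0.31 ± 0.13 in western libraries (n = 5), as mean ± SD, a difference of 0.22. The range was -0.19 to 0.12 with NaKtide, against -0.42 to -0.15 without, and the groups overlapped. The mean of the beta ring minus that of the lid was 0.53 ± 0.11 with NaKtide, against 0.13 ± 0.19 without, a difference of 0.39. For the alpha ring minus the lid the difference was 0.16. The summed level of all proteasome genes was 3631 ± 398 CPM with NaKtide, against 3090.4 ± 351 CPM without.

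**Figure D4:**
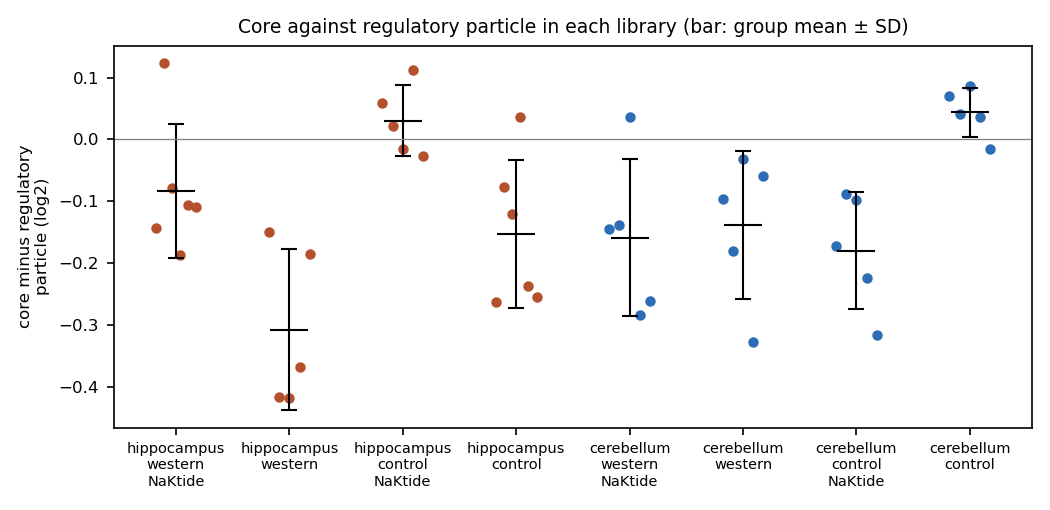
Mean log2(CPM + 1) of 14 core genes minus that of 17 regulatory particle genes (y axis) in each of 42 libraries, by group, with NaKtide groups left of the group without it on the same diet (point, library; bar, mean ± SD). Hippocampus western libraries average -0.31, the lowest of the 8 groups, and cerebellum control libraries average 0.04, the highest.

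NaKtide on the control diet left no proteasome gene called in hippocampus libraries by edgeR or by DESeq2, and edgeR called 0.0% of all genes. At an unadjusted p under 0.05, 14 of the 35 were higher and 0 lower, beside 10.2% of all genes higher and 6.31% lower. The smallest p belonged to Psma4 of the alpha ring, at 143, 148, 129, 134 and 121 CPM in control NaKtide libraries, against 87.6 CPM at the lowest, 99.6 at the median and 122 at the highest in control libraries. Only control 4 came up to the NaKtide libraries (log2 fold change 0.43, SE 0.12, adjusted p = 0.210). Psmb4 (0.49, adjusted p = 0.210) and Psmb10 (0.58, adjusted p = 0.214) came next. Psma3 of the alpha ring was the 1 gene that lay wholly higher with NaKtide, where 0.640% of all genes did. Median log2 fold changes were 0.32 in the core and 0.13 in the regulatory particle, and core minus regulatory particle was 0.03 ± 0.06 in control NaKtide libraries, against -0.15 ± 0.12 in control libraries. Choroid plexus markers summed to a median of 3749 CPM (366 to 6035) in control NaKtide libraries, against 308 CPM (9.35 to 5179) in control libraries. Pituitary markers summed to a median of 15.7 CPM (3.78 to 615) with NaKtide, against 3.55 CPM (2.70 to 4.51) without, and blood markers to 1198 CPM (962 to 1356), against 702 CPM (655 to 1426). The part of these cell types in the proteasome values was not tested. In this comparison too, the shortest length group of all genes had a median of 0.29 and the longest one of -0.17.

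The western diet without NaKtide also left no gene called by edgeR in hippocampus libraries (0.0% of all genes), and DESeq2 called 0 proteasome genes and 824 of all genes. At an unadjusted p under 0.05, 2 proteasome genes were higher and 10 lower, beside 11.7% and 12.9% of all genes (24.6% together). All 14 core genes had negative fold changes, with a median of -0.26, and the median of the regulatory particle was -0.18. The smallest p belonged to Psmb2 of the beta ring, at 73.2, 52.3, 46.1, 52.6 and 64.3 CPM in western libraries, against 64.1, 73.4 and 112 CPM (lowest, median, highest) in control libraries. Western 2, 3 and 4 lay below all control libraries (log2 fold change -0.46, SE 0.16, adjusted p = 0.114). Psmd9 (-0.35, adjusted p = 0.133) and Psmb4 (-0.41, adjusted p = 0.139) followed. Psmd5 was the 1 gene that lay wholly higher in western libraries, at 42.5 to 46.6 CPM, against 31.1 to 42.0 CPM in control libraries (0.33), where 1.68% of all genes did. Xist, which is made from an inactive X chromosome, was present in 4 libraries of the series. These were hippocampus control 5 and 6, hippocampus western NaKtide 6 and cerebellum western NaKtide 5. Of them, hippocampus control 5 and 6 enter here. Without the 4, 4 proteasome genes were called, 1 higher and 3 lower, beside 13.4% of all genes. Core minus regulatory particle was -0.31 ± 0.13 in western libraries and -0.15 ± 0.12 in control libraries. Microglial markers summed to a median of 327 CPM (279.5 to 458) in western libraries, against 465.8 CPM (402 to 609) in control libraries, and astrocyte markers to 1051 CPM (897 to 1349), against 776 CPM (583.5 to 1006). Markers of brain regions differed more. Striatal markers had medians of 184 CPM (144 to 407) in western and 1279 CPM (230 to 2418) in control libraries. For dentate granule cells these were 285.4 CPM (96.7 to 460) and 76.1 CPM (43.2 to 198). Choroid plexus markers had medians of 31.0 CPM (16.6 to 2551) and 308 CPM (9.35 to 5179), and oligodendrocyte markers 4788 and 7148 CPM. The median log2 fold change of all genes was -0.33 in the shortest length group and 0.21 in the longest. The part of cell content and length was not tested. These western libraries are the same ones that NaKtide was compared with above.

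With NaKtide present on both diets, no proteasome gene was called in hippocampus libraries by edgeR (0.0% of all genes) or DESeq2, and 7 were lower and 0 higher at an unadjusted p under 0.05, beside 5.60% and 5.08% of all genes. Psma4 lay wholly lower in western NaKtide than in control NaKtide libraries (log2 fold change -0.42, SE 0.12, adjusted p = 0.347), where 0.269% of all genes did. Psma1 (-0.28, adjusted p = 0.384) and Psmd14 (-0.28, adjusted p = 0.406) had the next smallest p. For the interaction of diet and NaKtide, edgeR called 0 proteasome genes and 0.0% of all genes, DESeq2 also called 0 proteasome genes, and 2 had an unadjusted p under 0.05, beside 6.12% of all genes higher and 8.47% lower. These were Psmc6 (difference of log2 fold changes -0.50, SE 0.17, adjusted p = 0.208) and Psmd5 (-0.48, SE 0.19, adjusted p = 0.252), both lower, and Psmd14 was next (-0.31, adjusted p = 0.355).

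In cerebellum libraries no comparison called a proteasome gene by edgeR. NaKtide on the western diet left 35 genes with a median log2 fold change of 0.10, and 2 were higher at an unadjusted p under 0.05, where edgeR called 0.0% of all genes and 0.734% were higher and 3.42% lower at that unadjusted p (4.16% together). These were Psmb7 (0.31, SE 0.12, adjusted p = 1.00) and Psmd14 (0.23, adjusted p = 1.00), and DESeq2 called 0. Psmd1, next by p, had a log2 fold change of 0.24 here. Core minus regulatory particle was -0.16 ± 0.13 in western NaKtide libraries and -0.14 ± 0.12 in western libraries, a difference of -0.02, which was 0.00 to 0.01 without western 3 or 5 or western NaKtide 4 or 5. Striatal markers had medians of 775 CPM in western NaKtide and 230 CPM in western libraries, and choroid plexus markers 666 and 39.9 CPM, with overlapping ranges. Cerebellum western 3 held 3577 CPM of cerebellar markers, against at most 239 CPM in western NaKtide libraries. The part of cell content was not tested.

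The cerebellum groups stood apart through their control libraries. For NaKtide on the control diet, edgeR called 0 proteasome genes (0.00612% of all genes) and 15 were lower at an unadjusted p under 0.05, beside 16.1% of all genes (29.5% in either direction). All 14 core genes had negative fold changes, with a median of -0.35 against -0.09 in the regulatory particle. Psmb1 of the beta ring had the smallest p, at 178, 178, 186, 145 and 131 CPM in control NaKtide libraries, against 254, 317, 218, 272 and 189.8 CPM in control libraries. The groups did not overlap, and the log2 fold change was -0.62 (SE 0.18, adjusted p = 0.0908). Psmb6 (-0.68, adjusted p = 0.0908) and Psmd4 (-0.58, adjusted p = 0.0983) followed, and Psmb2 and Psmb3 also lay wholly lower, as did 1.93% of all genes. DESeq2 called 2 proteasome genes lower and 8.68% of all genes. Without cerebellum control 5 edgeR called 8 (1 higher, 7 lower) beside 26.5% of all genes, and without cerebellum western NaKtide 3 it called 4 lower beside 8.38%.

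For the western diet without NaKtide in cerebellum libraries, edgeR called 0 proteasome genes (0.00612% of all genes), DESeq2 called 0, and 11 were lower at an unadjusted p under 0.05, beside 9.55% of all genes (9.98% were higher and 19.5% passed in all). The same control libraries served as the comparison. Median log2 fold changes were -0.33 in the core, with 14 of 14 negative, and -0.12 in the regulatory particle. Psmb1 lay at 195, 158, 176, 155 and 176 CPM in western libraries, and the control libraries are those given above, so that only control 5 fell among the western ones (log2 fold change -0.51, SE 0.18, adjusted p = 0.166). Psmd4 (-0.53, adjusted p = 0.177) and Psmb10 (-0.72, adjusted p = 0.185) were next. Psmc3, Psma2, Psmb5, Psmb2 and Psmd10 lay wholly lower, 5 of 35, where 1.71% of all genes did. Core minus regulatory particle was -0.18 ± 0.09 in control NaKtide libraries, -0.14 ± 0.12 in western libraries and 0.04 ± 0.04 in control libraries, and neither of the first 2 groups overlapped with the control libraries. In the shortest length group of all genes the median log2 fold change was -0.34 for NaKtide on the control diet and -0.27 for the diet, and in the longest it was 0.24 and 0.22. Markers of blood cells summed to 343 to 1223 CPM in control NaKtide libraries, 983 to 2997 CPM in western libraries and 942 to 6009 CPM in control libraries. Pituitary markers summed to 1.44 to 27.1 CPM in control NaKtide libraries, 2.16 to 3.90 CPM in western libraries and 6.68 to 333.5 CPM in control libraries. Oligodendrocyte markers had medians of 6557 CPM in control NaKtide, 6346 CPM in western and 16560 CPM in control libraries, and the ranges overlapped. Their part in the proteasome differences was not tested.

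**Figure D5:**
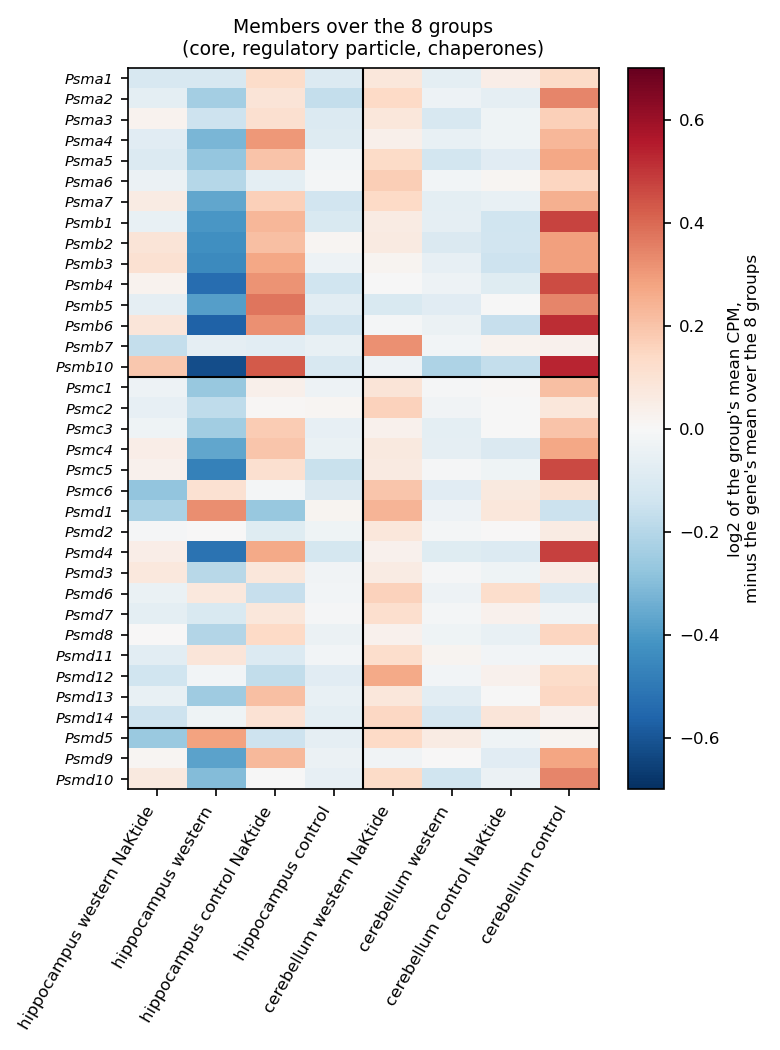
Mean level of each tested proteasome gene (rows, by part of the complex) in each of the 8 groups (columns), as the log2 of the group's mean CPM minus that gene's mean over the groups (colour scale). Psmb10 has both extremes, 0.53 above its mean in cerebellum control libraries and 0.62 below it in hippocampus western libraries.

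The western diet with NaKtide, against control diet with NaKtide, left 0 proteasome genes called in cerebellum libraries by edgeR (0.0% of all genes) and by DESeq2, and 1 higher at an unadjusted p under 0.05, beside 1.34% of all genes higher and 1.08% lower (2.42% together). That was Psmb7 (log2 fold change 0.29, adjusted p = 0.999), followed by Psmc2 (0.16) and Psmd12 (0.24). The interaction of diet and NaKtide called 0 proteasome genes by edgeR (0.00612% of all genes) and by DESeq2, with 9 higher at an unadjusted p under 0.05, beside 9.48% of all genes. Psmb1 (0.71, SE 0.25, adjusted p = 0.251), Psma5 (0.58) and Psma2 (0.55) had the smallest p.

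Between the region labels, in control mice, edgeR called 3 proteasome genes, all core genes and all lower in hippocampus libraries, and 2.20% of all genes. Psma2 lay at 81.7, 90.2 and 109.5 CPM (lowest, median, highest) in hippocampus control libraries, against 132, 164, 108, 138 and 114 CPM in cerebellum control libraries. Only hippocampus control 4 reached the cerebellum range, and the log2 fold change was -0.52 (SE 0.13, adjusted p = 0.0375). Psma2 shares its locus and strand with AW209491, which holds 60 to 197 counts per library. Psmb1 had a log2 change of -0.59 (SE 0.16, adjusted p = 0.0447) and Psmb4 one of -0.61 (SE 0.17, adjusted p = 0.0487). The count of 3 did not hold when any 1 control library was left out. It was 0 without cerebellum control 1, 2, 3 or 4 or hippocampus control 1, 3, 5 or 6, 1 without hippocampus control 2, 9 without cerebellum control 5 (25% of all genes) and 12 without hippocampus control 4 (14.7% of all genes). On the western diet with NaKtide, 2 were called lower in hippocampus libraries, Psmb7 (-0.47, SE 0.11, adjusted p = 0.0278) and Psmc6 (-0.46, SE 0.12, adjusted p = 0.0483), beside 1.75% of all genes, and Psmd1 was next (-0.44, adjusted p = 0.0550). This count was 0 without cerebellum western NaKtide 1, 2 or 4 or hippocampus western NaKtide 1, 3, 4 or 5, 1 without cerebellum western NaKtide 5 and 5 without hippocampus western NaKtide 2 (4.94% of all genes). Psmb7 lay at 55.1 to 78.3 CPM in hippocampus libraries, against 74.7 to 102 CPM in cerebellum libraries of this group. In the control NaKtide and the western groups edgeR called 0 proteasome genes and 0.0% of all genes between the labels, DESeq2 called 0, and some had an unadjusted p under 0.05. In the control NaKtide group these were 10 higher and 2 lower, beside 12.1% and 9.11% of all genes, and in the western group 1 higher and 12 lower, beside 8.98% and 13.6%. Psma4 (0.36, adjusted p = 0.131) had the smallest p in the control NaKtide group, followed by Psmd9 (0.32, adjusted p = 0.163) and Psmb10 (0.62, adjusted p = 0.168). In the western group they were Psmd9 (-0.43, adjusted p = 0.139), Psmb4 (-0.54, adjusted p = 0.141) and Psmb6 (-0.57, adjusted p = 0.146).

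The change with NaKtide on the western diet was itself compared between the labels, as the hippocampus log2 fold change minus the cerebellum one. Here 3 proteasome genes were called, all lower in hippocampus, where 8.84% of all genes were called. They were Psmd1 (-0.76, SE 0.18, adjusted p = 0.0146), Psmc6 (-0.60, SE 0.18, adjusted p = 0.0358) and Psmd5 (-0.56, SE 0.18, adjusted p = 0.0486), the same genes that were called lower in hippocampus libraries. In cerebellum libraries Psmd1 lay at 94.5, 86.9, 92.8, 105 and 88.7 CPM in western NaKtide libraries, against 74.9, 82.2, 61.1, 97.8 and 71.2 CPM in western libraries. All 5 NaKtide libraries there lay above 4 of the 5 western libraries, and western 4 lay among them. Cell type markers differed between the groups under both labels, as given above, and their part in these differences was not tested. The count was 1 without cerebellum western 1 or 3, cerebellum western NaKtide 1, 2 or 4, hippocampus western 4 or hippocampus western NaKtide 1 or 5, and 9 (6 higher, 3 lower) without cerebellum western NaKtide 3, beside 23.6% of all genes. For the diet without NaKtide the labels differed in 0 proteasome genes by edgeR, with 0 at an unadjusted p under 0.05, in 0 by DESeq2, and in 0.0% of all genes. At that unadjusted p, 5.31% of all genes differed (1.91% higher, 3.39% lower). Psmc6 had the smallest p there (0.36, adjusted p = 0.913), before Psma2 (0.28) and Psmd5 (0.27), both with an adjusted p of 0.935.

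Genes that act with the proteasome were read in the same comparison of NaKtide on the western diet in hippocampus libraries, in which 33.7% of all genes were called. The lists are small, and no list was tested against that share. In this comparison the median fold change of all genes fell with gene length, as given above. The genes of these lists were not read in the fit with the length trend removed. The part of gene length and of cell content in their values was not tested. All 4 genes of the interferon-induced list were higher: the immunoproteasome subunits Psmb8 (log2 fold change 1.198, SE 0.32, adjusted p = 0.00951) and Psmb9 (1.19, SE 0.41, adjusted p = 0.0307), and the activator subunits Psme1 (0.59) and Psme2 (0.68). Their levels were low for the subunits, with Psmb8 at 7.72 ± 2.85 CPM in western NaKtide libraries, against 3.39 ± 1.22 CPM in western libraries. Of the other activators and the inhibitor, 0 of 3 were called, with Psme3 at -0.14 and the inhibitor Psmf1 at 0.19. Of 5 assembly factors tested, 2 were higher, Pomp, which matures the beta ring (0.68, SE 0.18, adjusted p = 0.00792), and Psmg4, a chaperone of the core (0.94, SE 0.27, adjusted p = 0.0130). Pomp stood at 162 ± 23.8 CPM in western NaKtide libraries, against 102 ± 27.9 CPM in western libraries.

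Among 6 further genes of proteasome subunits and partners that the symbol rule leaves out, 2 were higher and 2 lower, beside 33.7% of all genes called. The small lid subunit Sem1 (0.69, adjusted p = 0.0198) and the ubiquitin receptor Adrm1 (0.46, adjusted p = 0.0149) were higher. The ubiquitin protease Usp14 (-0.80, SE 0.19, adjusted p = 0.00549) and the ubiquitin ligase Ube3c (-0.67, SE 0.13, adjusted p = 0.00268) were lower. Usp14 stood at 49.9 ± 3.39 CPM in western NaKtide libraries, against 87.9 ± 15.6 CPM in western libraries. Of 4 genes that control proteasome transcription, 1 was called, the protease Ddi2 that activates Nfe2l1 (-0.50, SE 0.17, adjusted p = 0.0310). Ngly1, which also processes Nfe2l1, had a log2 fold change of -0.27 (adjusted p = 0.164), and Nfe2l1 itself had a log2 change of -0.17 (SE 0.11, adjusted p = 0.239). Among genes for ubiquitin and its carriers, Rps27a, which encodes ubiquitin fused to a ribosomal protein, was higher (0.96, adjusted p = 0.0152). The shuttle factors Rad23b (-0.85, SE 0.18, adjusted p = 0.00310) and Ubqln2 (-0.72, adjusted p = 0.00713) were lower. Rad23b stood at 87.1 ± 6.75 CPM in western NaKtide libraries, against 158 ± 31.7 CPM in western libraries. For comparison, the COP9 signalosome, a complex built like the lid, had 1 of 10 genes higher (Cops9, 0.84) and 1 lower (Cops2, -0.64), and the chaperonin CCT had 1 of 8 lower (Cct6a, -0.34) and 0 higher (Cct3, next by p, had 0.21).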

How the data were processed

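Per the labels' protocols, a stranded kit for mRNA was used. Trimmomatic 0.38, HISAT2 2.1.0, DESeq2 1.20.0 and the build GRCm38 appear in the submitters' processing notes. The read counter was not given in the sources used here, nor was the annotation. Because the series' design text describes other tissues, groups rest on the sample labels. The authors deposited raw counts per gene, a normalized signal (counts divided by 1 size factor per library, checked from the values) and FPKM computed from that signal with 1 length per gene. That length was within 1% of the GENCODE M21 exon length for 96.7% of genes.

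Counts were fitted per region label, with 4 groups sharing 1 spread, and over 8 groups for contrasts between labels, by the quasi-likelihood F test of edgeR 4.0.16 after TMM scaling and filterByExpr (R 4.3.3). P-values were adjusted by Benjamini-Hochberg over all genes tested, and genes under 0.05 were called. Each SE was computed as the absolute log2 change divided by the root of its F statistic. Levels are CPM with TMM factors over 42 libraries. The fit was tested on simulated data. Promoter sequences are RefSeq's (GRCm38.p6). Coordinates are those of GENCODE M21.

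Members, lists and tests were chosen with earlier results of these data known. Given in full were, for NaKtide on western diet in hippocampus libraries, the genes of smallest and largest p in each role class, Psmb10 and members called against the majority, with the 3 smallest p elsewhere and the 2 smallest of each related list. Psmd4, Psmb2, Psmb3, Psmc4 and Psmd9 are named because they were called. Alternatives were DESeq2 size factors, DESeq2 1.42.0, no filter, compared groups only, a replicate block, a length trend removed, and leaving out libraries. Same-numbered libraries of different groups under the same label correlated with a median r of -0.12 (hippocampus) and -0.06 (cerebellum). The numbers thus showed no pairing within a label. Pairs across the labels, as from regions of the same mouse, were not checked. The fits over both labels treat all libraries as independent. Paaf1 was not matched in the table. The list of ubiquitin genes is given in part, and 1 result of it is not reported here.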

Additional observations from a re-analysis of the deposited data

Results flagged for a closer look

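The response to NaKtide on the western diet differed between the region labels for 3 proteasome genes by a test of the difference itself (edgeR, both labels in 1 fit). These 3 of 35 stand beside 8.84% of all genes called in that test, a like share. The hippocampus minus cerebellum difference was -0.76 for Psmd1, -0.60 for Psmc6 and -0.56 for Psmd5. Checks within a group covered each named gene, core minus regulatory particle, and the summed level of all proteasome genes. In 144 such checks, 6 values, from 5 libraries, lay far from the rest of their group. Chance gives about 1 in 20, so 6 of 144 is no more than chance gives. Hippocampus western NaKtide 6, a library with Xist, held 89.6 CPM of Psmd1, against 57.7 to 68.8 CPM in the other libraries of its group. Cerebellum western NaKtide 3 held 198 CPM of Psmd3, against 139.5 to 153 CPM in the others. Hippocampus control 3 held 80.3 CPM of Psma1, against 64.6 to 67.5 CPM, and 120.4 CPM of Psmd7, against 95.4 to 105 CPM in the others. Cerebellum control NaKtide 5 held 44.1 CPM of Psmd5, against 32.8 to 35.9 CPM in the others. In core minus regulatory particle, hippocampus western NaKtide 2 stood at 0.12, against -0.19 to -0.08 in the other libraries of its group.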

How the results depend on the processing

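The 13 proteasome genes called for NaKtide on the western diet in hippocampus libraries were 10 to 14 under the alternatives that keep all libraries and 7 to 16 without any 1 library. No such left-out library gave a call for the other hippocampus comparisons or for 4 of the 5 in cerebellum, and NaKtide on the control diet in cerebellum had 0 to 8. Without the libraries with Xist the diet without NaKtide had 4 calls in hippocampus, and DESeq2 made 2 for NaKtide on the control diet in cerebellum. Between the labels in control mice, 3 calls became 7 by DESeq2, 0 with no filter, 0 with only the groups compared, 0 with the replicate block, 6 with the length trend removed, 0 without the libraries with Xist and 0 with hippocampus control 5 and 6, the closest pair of libraries, summed (0 to 12 without any 1 library). On western diet with NaKtide, 2 calls became 4 by DESeq2, 0 with no filter, 0 with only the groups compared, 4 with the replicate block and 1 with the summed libraries (0 to 5 without any 1 library). The 3 calls of the difference between labels became 1 with no filter and 1 with only the groups compared (1 to 9 without any 1 library). With the replicate block the main count was 12 and the adjusted p of Psmc6 was 0.0531. Same-numbered libraries within a label do not deviate together, so this block says nothing about pairs. Core minus regulatory particle differed by 0.18 to 0.26 for NaKtide on western diet in hippocampus without any 1 library, by -0.20 to -0.12 for the diet there, and in cerebellum by -0.21 to -0.14 for the diet and -0.069 to 0.011 for NaKtide on western diet, the last being 0.006 without the libraries with Xist. Sign changes were limited to small values: Psma1 (-0.009 with no filter, -0.01 with only the groups compared, -0.046 with the length trend removed, -0.013 without Xist libraries, -0.04 to 0.053 without any 1 library), Psmd2 (-0.006 by DESeq2, -0.016, -0.017 and -0.004 under the same settings but length, -0.076 to 0.053 without any 1 library) and Psmd7 (-0.087 with the length trend removed). The causes were not tested. Low counts left Psma8 and Psmb11 untested.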
